A study of Mus musculus with 7 samples.

Results

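Aminoacyl-tRNA synthetases are the enzymes that load each amino acid onto its transfer RNA, and 37 of their genes were followed here in the nascent RNA of GFI1+ IAHC cells. The genes were taken by name, 21 for enzymes of the cytosol and 16 for enzymes of the mitochondrion, and all 37 were found among the 55487 genes of the raw count table. A gene was tested if it had at least 10 counts in at least 2 libraries of one condition, which 10311 genes of the table and 35 of the 37 synthetase genes did. Pars2 and Vars2, the mitochondrial enzymes for proline and valine, did not.

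GFI1+ IAHC lie in the hematopoietic clusters inside the embryonic aorta, and were sorted as CD31+ cKIT+ cells positive for a Gfi1:tomato reporter from E11.5 AGM (strain given as CD1/Gf1+). Controls included, all cells had spent a night under compE, which blocks γ-secretase and with it the release of active Notch. After washing, 300 to 400 cells per set stayed 4 h in methylcellulose with EU, a uridine analog that marks new RNA. The washout group (libraries washout 1, 2 and 3) received DMSO, the compE group (compE 1 and 2) stayed under the inhibitor, and the Fc-JAG1 group (Fc-JAG1 1 and 3) received recombinant JAG1, a Notch ligand. The number in a library name is called an embryo in the labels and 1 of 3 biological samples, made from pooled embryos, in the methods. The sources differ on the units of the compE and Fc-JAG1 doses and on the cycles of pre-amplification, so no dose is compared.

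Each synthetase recognises 1 amino acid and the transfer RNAs that belong to it, joins them at the cost of ATP, and hands the product to the ribosome. The cytosolic enzymes serve the translation of nuclear genes, and 8 of them (for aspartate, glutamate and proline, isoleucine, leucine, lysine, methionine, glutamine and arginine) assemble with 3 scaffold proteins into the multi-synthetase complex. The mitochondrial enzymes are coded in the nucleus and imported, and serve the few proteins made inside the organelle. Gars and Kars each code for both forms. The enzymes fall into class I and class II by the fold of their active site, and of the cytosolic genes 10 belong to class I and 11 to class II.

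Total counts per library ran from 21652927 to 33974693. Libraries differed more in how many genes they held: 94.2%, 92.4% and 90.5% of the tested genes had at least 10 counts in washout 2, compE 2 and Fc-JAG1 1, and 56.2% to 71.1% had as many in washout 1, washout 3, compE 1 and Fc-JAG1 3. Of 10 markers of the sorted cells, 6 (Runx1, Kit, Cd34, Myb, Spi1 and Pecam1) had at least 10 counts in all 7 libraries, and Itga2b and Ptprc in 6. Cdh5, of endothelium, had 139 counts in washout 1 and 0 to 3 in the others. Gfi1 itself had 2477 counts in washout 3, 2504 in Fc-JAG1 1 and 12 in washout 2, and was at 0 in the other 4 libraries. In such bulk libraries, fewer cells and less RNA per cell cannot be told apart.

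Most synthetase genes were either well covered in a library or nearly missing from it. Of the 245 values of the 35 tested members in 7 libraries, 187 (76.3%) were at 1000 counts or more, 11 were at 0, 20 at 1 to 9 counts and only 6 at 10 to 99 counts. Over all tested genes, 47.8% of the values were at 1000 counts or more and 13.4% at 10 to 99. Values of 0 made up 4.49% for the members and 9.93% for all tested genes. Values of 1 to 9 made up 8.16% and 12.6%, so the members were missing or nearly missing less often than all tested genes. All values of tested members under 10 counts lay in washout 1, washout 3, compE 1 and Fc-JAG1 3. In washout 2, compE 2 and Fc-JAG1 1 every tested member had more than 100 counts.

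**Figure D1:**
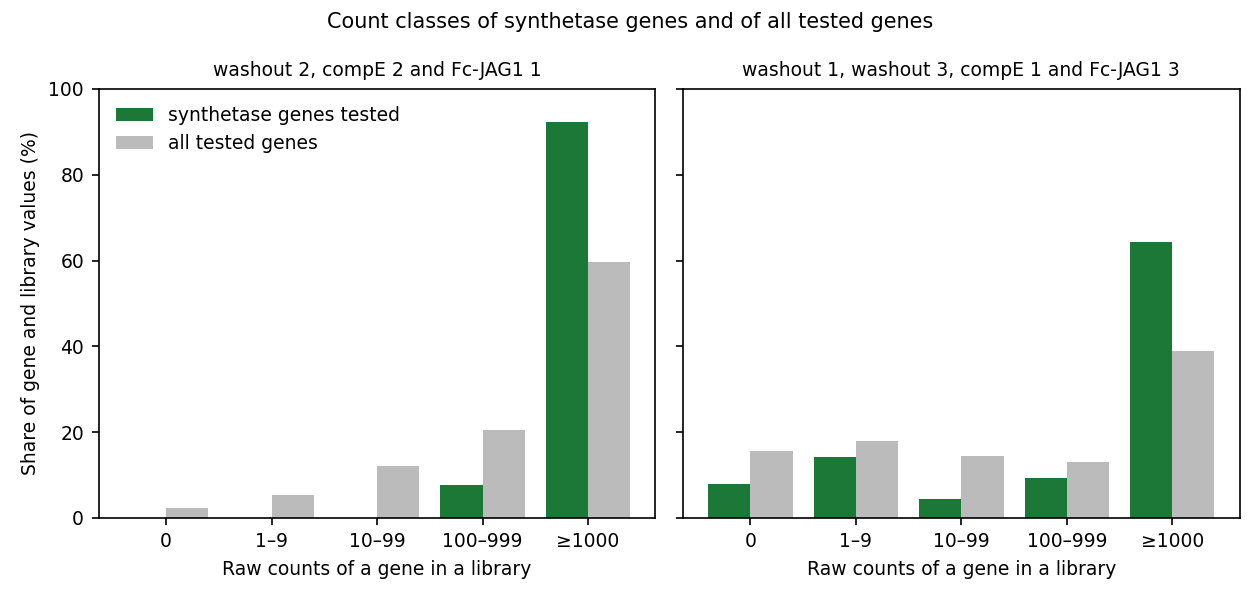
Share of gene and library values (vertical axis, in percent) in each class of raw counts (horizontal axis) for the 35 tested synthetase genes (green) and all 10311 tested genes (grey), in the 3 libraries with most genes (left) and the other 4 (right). In the left panel 92.4% of the synthetase values are at 1000 counts or more and none is under 100. In the right panel 64.3% are at 1000 or more and 7.86% are at 0, against 38.9% and 15.7% for all tested genes.

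At least 10 counts were reached by 23, 36 and 27 of the 37 members in the washout libraries. With compE 31 and 36 members did so, and with Fc-JAG1 36 and 29. Of the 21 cytosolic genes 15 to 21, and of the 16 mitochondrial genes 8 to 15, had at least 10 counts. The cytosolic share was the larger in each of the 7 libraries, but the 16 include Pars2 and Vars2, which failed the filter. In washout 2, compE 2 and Fc-JAG1 1 all 35 tested members had 10 counts, so the order there rested on Pars2 or Vars2 alone. In compE 1 the cytosolic genes and the 35 tested members both stood at 85.7%. Of the 8 complex members, 6 to 8 had at least 10 counts in a library.

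**Figure D2:**
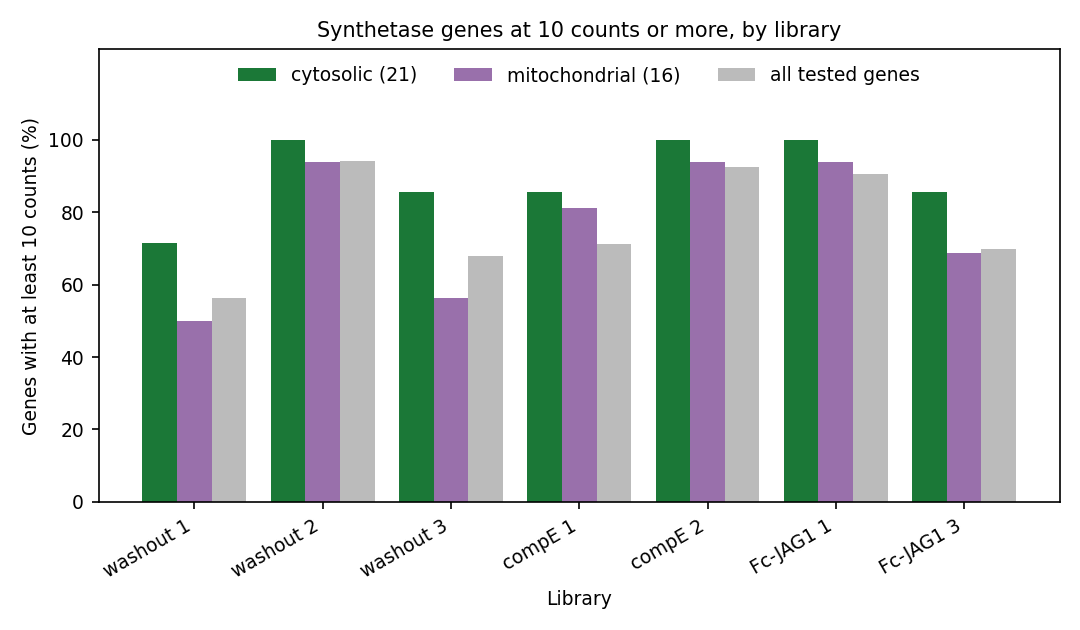
Share of genes with at least 10 counts (vertical axis, in percent) in each library (horizontal axis) for the 21 cytosolic genes (green), the 16 mitochondrial genes (purple) and the 10311 tested genes (grey). In washout 1 the bars stand at 71.4%, 50% and 56.2%, and in washout 2 at 100%, 93.8% and 94.2%. The purple bars include Pars2 and Vars2, which failed the filter that all grey genes passed. Both were at 0 counts in washout 1, and in washout 2 Vars2 was the only member short of 10. In both libraries the purple bar is therefore lower than for tested genes alone.

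Of the 35 tested members, 13 had at least 10 counts in all 7 libraries (37.1%, against 29.4% of all tested genes), 15 in 6, 5 in 5 and 2 in 4. None was at 10 counts in 3 libraries or fewer, where 6.96% of the tested genes reached 10 counts in 3 and 3.04% in 2. The members that reached it in 4 were Aars2, the mitochondrial enzyme for alanine, and Tarsl2, a cytosolic threonyl-tRNA synthetase that resembles Tars. In washout 1 no listed gene for asparagine, aspartate, serine or tyrosine had 10 counts, in washout 3 none for glutamine and in compE 1 none for lysine. In the other 4 libraries every one of the 20 amino acids had at least 1 listed gene at 10 counts.

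The 37 genes together took 0.583%, 0.583% and 0.549% of the counts of the 3 washout libraries. The share was 0.743% and 0.661% under compE, and 0.607% and 0.596% under Fc-JAG1. In these shares the washout libraries were the lowest and the compE libraries the highest, with no overlap. After TMM scaling, which allows for the few genes that dominate some libraries, the order was lost: the summed level was 4857 to 7327 CPM (counts scaled to library size) in the washout, 5799 and 8352 CPM with compE, and 5446 and 6654 CPM with Fc-JAG1. The cytosolic genes held 68.4% to 85.9% of the synthetase counts in a library, and the 8 complex members 24.9% to 34.9%.

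Levels of different genes were compared per kb of exon. The median of the 21 cytosolic genes was above that of the 16 mitochondrial genes in all 7 libraries. Their ratio was smallest in compE 1 (2.17, from 44.4 and 20.5 CPM per kb), and their difference in washout 1 (14.6 CPM per kb), and in the 3 libraries with most genes they stood at 43.1 and 5.92 (washout 2), 49.7 and 12.4 (compE 2) and 42.2 and 7.81 CPM per kb (Fc-JAG1 1). The order was the same in all 7 libraries with the length of the longest transcript and with that of the whole gene. Among single genes the highest median over the 7 libraries was that of Farsb, at 123 CPM per kb (mean 132 ± 82.4, SD, n = 7), followed by Hars at 78.8 (115 ± 95.3, SD, n = 7) and Rars at 70.3 CPM per kb (59.4 ± 41.4, SD, n = 7). These neighbours do not differ beyond their spread. The 11 genes with the highest medians were all cytosolic, and of the 11 with the lowest, 10 were mitochondrial and 1 was Tarsl2. These ranks of single genes rest on exon length alone, and other lengths were not tried for them. Farsb has 2620 exon bases in a gene of 70923 bases, and Hars 2447 in 16678. The authors counted with the gene as feature, and whether introns were counted is not given.

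**Figure D3:**
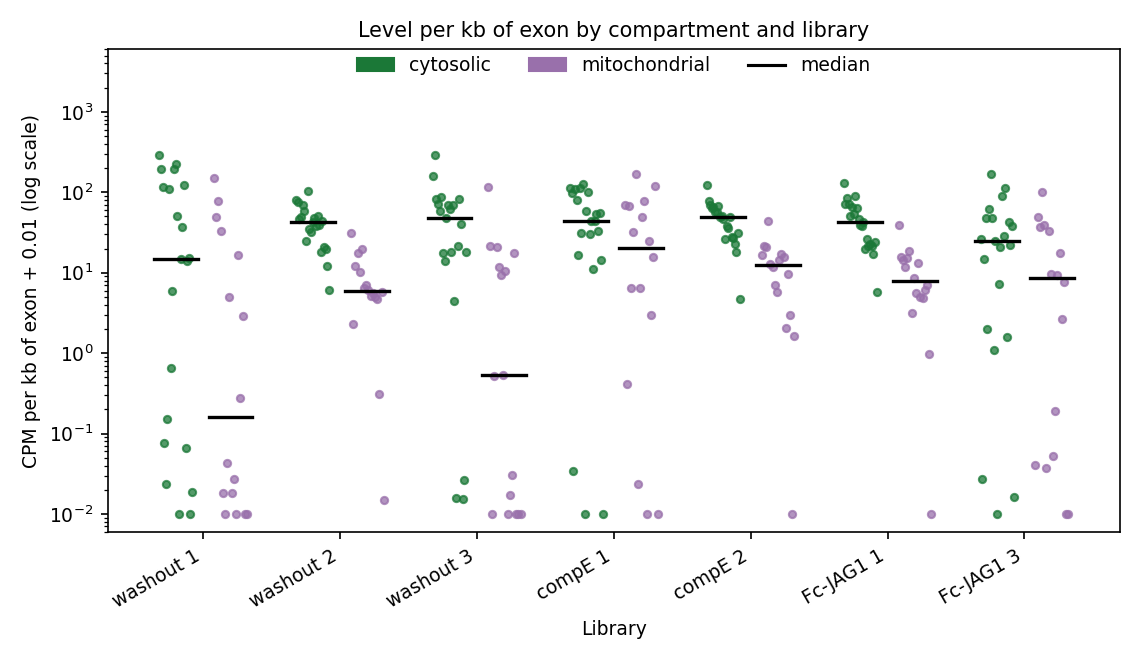
Level of each synthetase gene (points) per kb of exon in each library, in CPM per kb with 0.01 added, on a log axis. Cytosolic genes are green, mitochondrial genes purple and the black lines are medians, and the cytosolic line is the higher in all 7 libraries, from 14.8 against 0.149 CPM per kb in washout 1 to 44.4 against 20.5 in compE 1.

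Below, raw counts are given in the order of washout 1, 2 and 3, then compE 1 and 2, then Fc-JAG1 1 and 3. Among the complex members, the bifunctional enzyme Eprs, which charges both glutamate and proline transfer RNA, was the steadiest of all 37 genes: it had 4341, 13631 and 20556 counts in the washout, 15246 and 15816 with compE, and 14141 and 18421 with Fc-JAG1. Its normalised level was 454 ± 249 CPM in the washout (SD, n = 3), 506 ± 138 with compE (SD, n = 2) and 584 ± 277 with Fc-JAG1 (SD, n = 2). The 3 groups of Eprs overlapped, and its highest CPM was 3.10 times its lowest. Lars, for leucine, was also present throughout, with 4651, 9158 and 2719 counts in the washout, 13655 and 5456 with compE, and 7432 and 921 with Fc-JAG1. Mars1 (Mars in the annotation used), for methionine, had 872, 6199 and 424 counts in the washout, 3804 and 4798 with compE, and 2455 and 7341 with Fc-JAG1. In both genes the Fc-JAG1 libraries held the extremes on one side, Lars at its lowest and Mars1 at its highest in Fc-JAG1 3.

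Iars, for isoleucine, had 538, 6736 and 7027 counts in the washout, 16854 and 10182 with compE, and 12170 and 136 with Fc-JAG1. Both compE libraries were above the washout, and its lowest value was in Fc-JAG1 3. The remaining complex members each fell under 10 counts in 1 library, Kars and Rars in compE 1, Qars in washout 3 and Dars in washout 1. Kars, for lysine, was at 0 in compE 1 and had 2647 to 14909 counts in the other 6 libraries. Rars, for arginine, had 2 counts in compE 1 and 1119 to 10088 in the others. Qars, for glutamine, had 1 count in washout 3 and 1709 to 9167 elsewhere, and Dars, for aspartate, had 5 counts in washout 1 and 4983 to 11995 elsewhere.

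Of the cytosolic genes outside the complex, 5 had at least 10 counts in every library. Aars, for alanine, had 19518, 6114 and 5586 counts in the washout, 10411 and 10131 with compE, and 7231 and 24838 with Fc-JAG1. Vars, for valine, had 10652, 5036 and 2799 counts in the washout, 15961 and 12253 with compE, and 10915 and 22109 with Fc-JAG1. Both had their highest raw counts in Fc-JAG1 3, though in CPM Aars was higher in washout 1 (1133) than in Fc-JAG1 3 (1052). The raw counts of Vars were higher in all 4 compE and Fc-JAG1 libraries than in the washout, but in CPM washout 1 (618) lay above compE 2 (316) and Fc-JAG1 1 (300). Gars, for glycine, had 35, 11587 and 1208 counts in the washout, 2441 and 8179 with compE, and 10133 and 3542 with Fc-JAG1, so that the washout alone spanned the values of both other groups.

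Farsa and Farsb code for the α and β subunits of the cytosolic enzyme for phenylalanine, which works as a tetramer of both. Farsa had 11, 9513 and 11122 counts in the washout, 1915 and 10019 with compE, and 10998 and 6656 with Fc-JAG1. Farsb had 13195, 7528 and 11647 counts in the washout, 7470 and 12496 with compE, and 12484 and 1633 with Fc-JAG1. The pair thus parted in single libraries: in washout 1 Farsb was well covered and Farsa almost absent, and Fc-JAG1 3 held the lowest Farsb value and a mid-range Farsa value. Of the exon bases of Farsb 9.47%, and of those of Aars 15.1%, are shared with a neighbouring gene.

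The other cytosolic genes outside the complex dropped under 10 counts in 1 or more of the 4 libraries with fewer genes. Wars (tryptophan, an interferon-induced gene in many cells) and Hars (histidine) did so in Fc-JAG1 3, Tars (threonine) in washout 3, and Nars (asparagine), Sars (serine) and Yars (tyrosine) in washout 1. Cars (cysteine) did so in washout 1 and washout 3. Yars had 0, 8188 and 11610 counts in the washout, 4501 and 8703 with compE, and 9127 and 2911 with Fc-JAG1. Tarsl2 had 1, 1475 and 3397 counts in the washout, 0 and 1222 with compE, and 1392 and 1 with Fc-JAG1. For both, a washout library held the lowest or nearly the lowest value and another the highest.

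Among the mitochondrial genes, Cars2, Fars2, Lars2 and Wars2 had at least 10 counts in every library. Lars2, for leucine, was the steadiest of them, with 941, 2808 and 164 counts in the washout, 1828 and 2437 with compE, and 3500 and 2529 with Fc-JAG1. Fars2, which as a single chain charges phenylalanine, had 3270, 3627 and 83 counts in the washout, 930 and 9733 with compE, and 2481 and 13845 with Fc-JAG1. Wars2, for tryptophan, had 5046, 494 and 3556 counts in the washout, 61 and 4891 with compE, and 3396 and 6904 with Fc-JAG1. Within compE alone, Wars2 spanned 2.41 to 126 CPM. Cars2, for cysteine, had 33, 1216 and 3598 counts in the washout, 548 and 2733 with compE, and 1586 and 455 with Fc-JAG1. Its lowest and its highest value both came from the washout.

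The other mitochondrial genes came and went between libraries. Ears2, which loads glutamate onto the glutamine transfer RNA as well as its own, had 3 counts in washout 3 and 410 to 3275 elsewhere. Tars2, for threonine, had 1 count in washout 1 and 2515 to 6421 elsewhere. Yars2, for tyrosine, had 0, 2208 and 1049 counts in the washout, 13272 and 1440 with compE, and 2123 and 2 with Fc-JAG1. The members left out of the tests were almost confined to 1 library each. Pars2 had 9302 counts in compE 1, 635 in washout 2 and 108 in Fc-JAG1 1, and was at 0 in the other 4. Vars2 had 339 counts in compE 2 and 1 in washout 2, and was at 0 in the other 5.

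Hars and Hars2 are neighbours that point away from each other, with starts 197 bases apart and 195 exon bases in common. Hars had 8114, 6764 and 19837 counts in the washout, 5986 and 7470 with compE, and 6323 and 1 with Fc-JAG1. Hars2 had 5679, 1891 and 0 counts in the washout, 7347 and 3429 with compE, and 2222 and 3754 with Fc-JAG1. Despite the shared start region each was present where the other was missing, Hars in washout 3 and Hars2 in Fc-JAG1 3. Whether the counting used strand is not given in the sources used here.

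**Figure D4:**
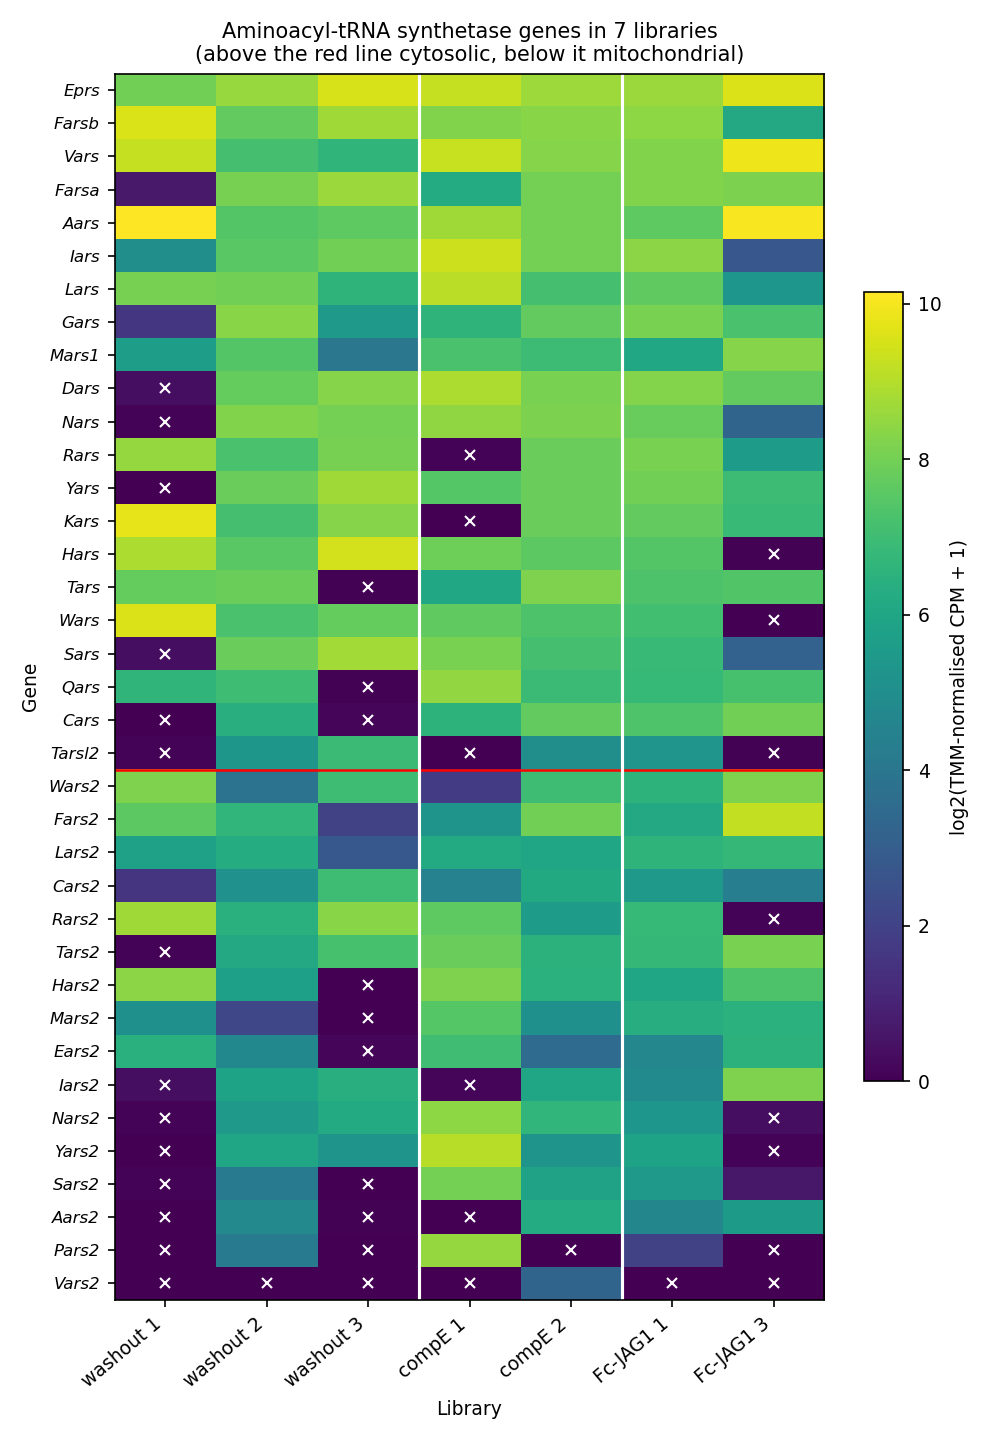
Level of the 37 synthetase genes (rows) in the 7 libraries (columns) as log2 of TMM-normalised CPM plus 1, with cytosolic genes above the red line and mitochondrial genes below it, each sorted by the number of libraries at 10 counts and then by median. White crosses mark values under 10 counts, of which washout 2, compE 2 and Fc-JAG1 1 have 1 each and the other 4 libraries 6 to 14.

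The comparison of Fc-JAG1 with the washout asks how the synthetase genes responded to added Notch ligand. No synthetase gene passed edgeR's quasi-likelihood test at an adjusted p of 0.05, nor did any of the 10311 genes (0%). At an unadjusted p under 0.05, 1 of the 35 members (Cars) and 526 of all genes (5.10%) passed. The median log2 fold change of the members was 1.07 and that of all genes 0.44, with 23 members above 0 and 12 below. Of the members, 3 were higher (10.5% of all genes) and 2 lower (6.85% of all genes) with no overlap in CPM between the groups, which is 8.57% and 5.71% of the 35, near the shares of all genes.

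Cars, for cysteine (ENSMUSG00000010755, GRCm38 chr7:143557230-143600090, minus strand), had 0, 2897 and 3 counts in the washout, 2375 and 7971 with compE, and 5851 and 5937 with Fc-JAG1. Both Fc-JAG1 libraries were above all 3 washout libraries. Its level was 26.8 ± 46.3 CPM in the washout (SD, n = 3) and 206 ± 64.2 CPM with Fc-JAG1 (SD, n = 2). The log2 fold change in edgeR was 6.71 ± 3.11 (SE), with an adjusted p of 0.83. Aars2 (ENSMUSG00000023938, chr17:45506841-45520843, plus strand) had 0, 952 and 1 counts in the washout, 0 and 2877 with compE, and 872 and 1059 with Fc-JAG1. Its washout 2 library lay between the Fc-JAG1 libraries in raw counts, and the edgeR log2 fold change of 11.32 ± 5.47 (SE, adjusted p = 0.83) came with a ratio of mean CPM of 3.91. The fit has a term for the biological sample, and Fc-JAG1 has no library of the sample of washout 2. Without that term the edgeR log2 fold change of Aars2 was 1.82 ± 2.16 (SE).

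Wars (ENSMUSG00000021266, chr12:108860030-108894174, minus strand) had 13296, 5365 and 6051 counts in the washout, 5172 and 6179 with compE, and 4925 and 0 with Fc-JAG1. Its log2 fold change in edgeR was -3.80 ± 2.01 (SE, adjusted p = 0.83), and that of Hars, whose counts stand above, was -3.42 ± 2.04 (SE, adjusted p = 0.84). Both genes had no overlap between Fc-JAG1 and the washout. In both, Fc-JAG1 1 was close to washout 2, with log2 ratios of CPM plus 1 of -0.14 for Wars and -0.11 for Hars, while Fc-JAG1 3 held 0 counts of Wars and 1 of Hars. Mars2, for mitochondrial methionine, had 564, 123 and 0 counts in the washout, 4507 and 1298 with compE, and 2860 and 2061 with Fc-JAG1. Both Fc-JAG1 libraries of Mars2 were above the washout, with an edgeR log2 fold change of 3.59 ± 3.16 (SE, adjusted p = 0.94). Lars2, without overlap in CPM though not in raw counts, had a log2 fold change in edgeR of 2.25 ± 2.82 (SE, adjusted p = 0.996).

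The study used DESeq2, and by its Wald test 7 members passed. Of these 5 were higher with Fc-JAG1 (14.3% of the 35, against 15.7% of all genes) and 2 lower (5.71%, against 4.74% of all genes), so the share of synthetase genes called was near that of all genes. The 5 were Cars (log2 fold change 10.51 ± 2.24 SE, adjusted p = 0.000118), Aars2 (10.74 ± 2.21 SE, adjusted p = 6.75e-05), Mars2, Tars and Qars, and the 2 were Wars (-5.05 ± 1.75 SE, adjusted p = 0.0238) and Rars2, the mitochondrial enzyme for arginine. For Mars2, Tars and Qars the DESeq2 adjusted p was 0.0318, 0.0405 and 0.0497, and for Rars2 it was 0.0208. No member passed when the term for the biological sample was left out.

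Each of the 7 was under 10 counts in at least 1 washout or Fc-JAG1 library. Tars had 3735, 8388 and 1 counts in the washout, 1665 and 11373 with compE, and 5702 and 3954 with Fc-JAG1. Qars had 1709, 4610 and 1 counts in the washout, 9167 and 4603 with compE, and 4031 and 3467 with Fc-JAG1. In both genes the raw counts with Fc-JAG1 lay between those of washout 1 and washout 2. In CPM, Tars with Fc-JAG1 (156.5 and 167.5) lay below both washout 1 (216.9) and washout 2 (232.5). Qars in CPM was between them in Fc-JAG1 1 (110.6) and above washout 2 (127.8) in Fc-JAG1 3 (146.9). Without washout 3 the DESeq2 log2 fold change was -0.78 for Tars and -1.10 for Qars. Rars2 had 7102, 3116 and 8984 counts in the washout, 4925 and 1784 with compE, and 3993 and 2 with Fc-JAG1. Over the 7 fits that left out 1 library each, Wars, Rars2 and Aars2 were called in 5, Cars in 4, and Mars2, Tars and Qars in 2. The call was lost without Fc-JAG1 3 in all 7 genes and without washout 3 in all but Aars2, with DESeq2 adjusted p-values up to 0.571 for Wars, 0.0983 for Cars and 0.902 for Tars. Some losses, among them those of Aars2, came from the rule that 10 counts be reached in 2 libraries of a condition, since its adjusted p stayed at or under 0.0182.

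Set side by side, the libraries with most genes showed small differences. Fc-JAG1 1 against washout 2 has 1 library per condition and hence no test, and these libraries are of different biological samples. Of the 35 members 29 were within 2-fold (82.9%, against 65.0% of all genes), and the median log2 ratio was 0.14 for the members and 0.01 for all genes. Outside 2-fold were Mars2 (log2 ratio 4.17), Wars2 (2.68), Sars2 (1.33), Vars (1.10), Iars2 (-1.02) and Mars1 (-1.34). Cars was at 0.99 and Aars2 at -0.14.

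The comparison of compE with the washout asks how these genes stood with Notch signalling still blocked and with the block removed. With edgeR again no member and no gene passed (0%), and at an unadjusted p under 0.05 none of the 35 members and 271 of all genes (2.63%) did. The median log2 fold change was 0.55 for the members and -0.10 for all genes, with 22 members above 0 and 13 below. Without overlap in CPM, 5 members were higher with compE (14.3%, against 10.9% of all genes) and none lower (6.79% of all genes). The 5 were Cars, Mars2, Iars, Nars2 and Sars2.

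Sars2, the mitochondrial enzyme for serine, had 1, 609 and 0 counts in the washout, 6528 and 2216 with compE, and 1603 and 14 with Fc-JAG1. Its level was 5.65 ± 9.73 CPM in the washout (SD, n = 3) and 158 ± 142 CPM with compE (SD, n = 2), with an edgeR log2 fold change of 4.32 ± 3.33 (SE, adjusted p = 1). Nars2, for asparagine, had 1, 1546 and 2049 counts in the washout, 8585 and 3882 with compE, and 1429 and 7 with Fc-JAG1. Both mitochondrial genes thus had their highest counts in compE 1 and then compE 2. The edgeR log2 fold changes were 1.80 ± 3.02 (SE) for Nars2, 0.65 ± 2.08 (SE) for Iars, 3.28 ± 2.47 (SE) for Mars2 and 4.36 ± 2.68 (SE) for Cars, each with an adjusted p of 1. For Cars the compE libraries, at 93.9 and 206 CPM, stood above washout 2 at 80.3 CPM, whereas in raw counts compE 1 was below washout 2.

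On the lower side Kars had 14909, 5134 and 8774 counts in the washout, 0 and 8665 with compE, and 7654 and 2647 with Fc-JAG1. Rars had 6485, 5428 and 7419 counts in the washout, 2 and 8797 with compE, and 10088 and 1119 with Fc-JAG1. In both genes compE 2 lay within the range of the washout or above it and compE 1 alone was near 0. The edgeR log2 fold changes were -3.93 ± 3.61 (SE) for Kars and -3.58 ± 3.76 (SE) for Rars, and without compE 1 they were 0.63 and 0.57.

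DESeq2 called 3 members: Cars (log2 fold change 8.79 ± 2.22 SE, adjusted p = 0.0034) and Sars2 (7.75 ± 2.34 SE, adjusted p = 0.0169) higher, which is 5.71% of the 35 against 5.66% of all genes, and Rars (-6.10 ± 1.90 SE, adjusted p = 0.0216) lower, against 3.67% of all genes. Cars and Sars2 were called in 1 of the 7 fits without 1 library and Rars in 2, and without compE 1 the DESeq2 adjusted p was 1 for each. Without compE 2 the adjusted p in DESeq2 was 0.00393 for Cars and 0.00585 for Sars2, and these calls ended by the rule of 10 counts in 2 libraries. In compE 2 against washout 2, with 1 library each and no test, 25 of the 35 members were within 2-fold (71.4%, against 66.1% of all genes). The log2 ratio was 3.11 for Wars2, 2.97 for Mars2, 1.70 for Sars2 and 1.35 for Cars, while for Kars and Rars it was 0.65 and 0.59. The 8 listed macrophage genes summed to 420.5 to 522 CPM in the washout and 103 to 356 CPM with compE. With Fc-JAG1 the sum was 151 to 508 CPM. They did not move together with compE. Of those tested, edgeR log2 fold changes were -4.69 for Ctss, -3.96 for Lyz2, -3.74 for Mertk, -0.06 for Cd68 and 0.56 for Csf1r. Adgre1, left out of the tests, was highest in compE 2 at 86.7 CPM. The part of these genes in the result was not tested. Of these genes C1qa was at 0 in all libraries but washout 2 and C1qb had at most 6 counts.

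**Figure D5:**
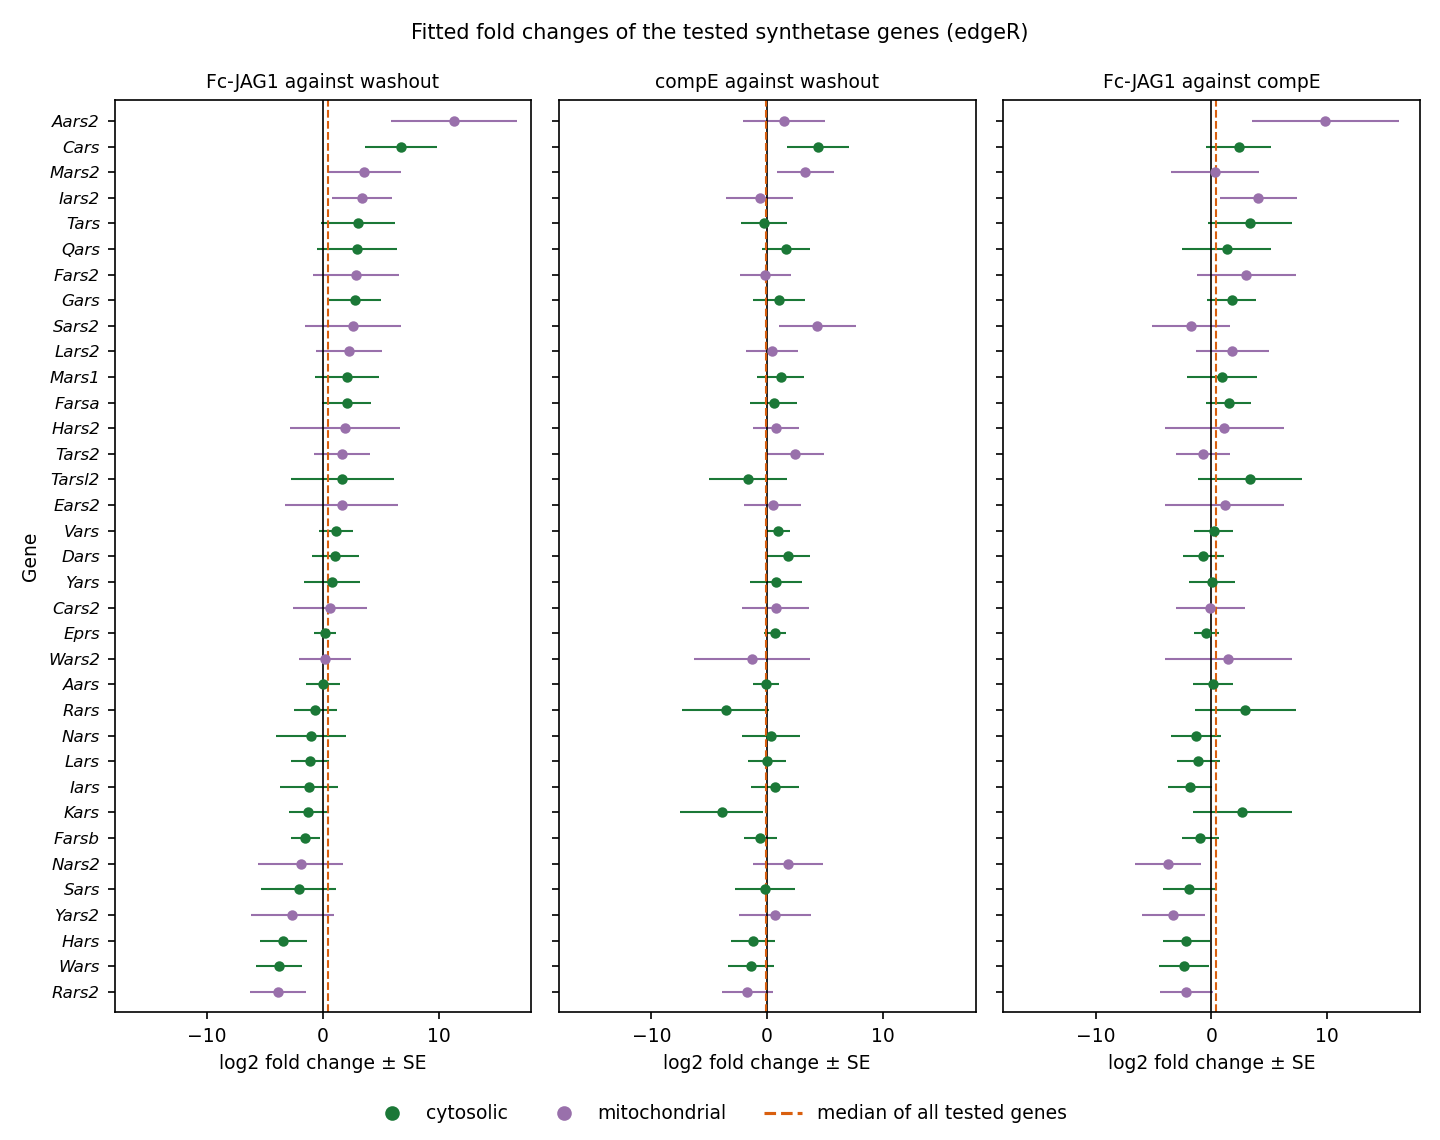
Log2 fold changes in edgeR with their standard errors (horizontal axis) for the 35 tested synthetase genes, ordered by the first panel, in the 3 comparisons. Cytosolic genes are green, mitochondrial genes purple, and the dashed line is the median of all tested genes (0.44, -0.10 and 0.43), with Aars2 the farthest point in the first panel at 11.32 ± 5.47 and none of the 35 past the test in any panel.

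Fc-JAG1 was also compared with compE, ligand against continued block. No member and no gene passed edgeR (0%), and none of the members and 292 of all genes (2.83%) had an unadjusted p under 0.05. The median log2 fold change was 0.19 for the members and 0.43 for all genes, with 20 members above 0 and 15 below. With no overlap, Farsa and Lars2 were higher with Fc-JAG1 (5.71% of the 35, against 15% of all genes) and Wars, Hars, Nars, Sars, Nars2 and Sars2 lower (17.1%, against 15.4% of all genes).

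Nars had 1, 10797 and 7237 counts in the washout, 8820 and 10921 with compE, and 7956 and 203 with Fc-JAG1. Sars had 5, 8232 and 11883 counts in the washout, 7013 and 5424 with compE, and 4210 and 193 with Fc-JAG1. For both genes, as for Wars, Hars, Nars2 and Sars2, Fc-JAG1 3 was the lower of the Fc-JAG1 libraries. In Fc-JAG1 1 against compE 2 the log2 ratio was -1.33 for Nars2, which is beyond 2-fold, and -0.37 for Sars2. It was -0.37 for Nars, -0.27 for Sars, -0.24 for Wars and -0.15 for Hars. In edgeR the log2 fold change was -1.37 ± 2.16 (SE) for Nars, -1.90 ± 2.28 (SE) for Sars, -2.37 ± 2.17 (SE) for Wars and -2.18 ± 2.02 (SE) for Hars, each with an adjusted p of 1. Nars2 stood at -3.73 ± 2.85 (SE), Sars2 at -1.74 ± 3.37 (SE) and Yars2, whose groups overlapped, at -3.31 ± 2.72 (SE). Farsa stood at 1.49 ± 1.95 (SE) and Lars2 at 1.80 ± 3.15 (SE).

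Iars2, for mitochondrial isoleucine, had 5, 2090 and 2354 counts in the washout, 3 and 2423 with compE, and 1022 and 6867 with Fc-JAG1. It overlapped between the groups, since Fc-JAG1 1 was below compE 2, and its edgeR log2 fold change was 4.07 ± 3.36 (SE, adjusted p = 1). Aars2 stood at 9.86 ± 6.32 (SE, adjusted p = 1) in edgeR, while its mean CPM with Fc-JAG1 was 0.926 times that with compE, where compE 1 was at 0 and compE 2 held the highest value. DESeq2 called these genes, Aars2 (log2 fold change 10.23 ± 2.65 SE, adjusted p = 0.00316) and Iars2 (5.77 ± 2.11 SE, adjusted p = 0.0492), both higher (5.71% of the 35, against 9.18% of all genes) and none lower (2.21% of all genes). Aars2 was called in 4 of the 7 fits without 1 library and Iars2 in none, and without compE 1 the DESeq2 adjusted p was 0.275 for Aars2 and 0.827 for Iars2. Of the exon bases of Iars2 24.2% are shared with neighbouring genes, most of them with Rab3gap2. In Fc-JAG1 1 against compE 2 28 of the 35 members were within 2-fold (80%, against 64.7% of all genes). These libraries too are of different biological samples.

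Among the partners of the enzymes, the 3 scaffolds of the multi-synthetase complex passed the filter, and none passed edgeR in any comparison. Aimp1 had 1289, 6193 and 0 counts in the washout, 0 and 4433 with compE, and 4912 and 3840 with Fc-JAG1. Eef1e1, which codes for the scaffold also known as AIMP3, had 0, 8422 and 3173 counts in the washout, 3 and 3867 with compE, and 11886 and 2361 with Fc-JAG1. Both were at or near 0 in compE 1 and under 10 counts in 1 washout library. Aimp2 had 0, 3045 and 4885 counts in the washout, 2722 and 3775 with compE, and 3002 and 0 with Fc-JAG1, so that it was present in compE 1 and absent from Fc-JAG1 3. DESeq2 called Eef1e1 higher with Fc-JAG1 than in the washout, and Aimp1 and Eef1e1 higher than with compE, beside 15.7% and 9.18% of all genes. For Aimp2 the DESeq2 log2 fold change was -1.65 ± 3.22 (SE, adjusted p = 0.783) against the washout and -1.78 ± 3.85 (SE, adjusted p = 0.857) against compE.

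Of 16 genes for the handling of transfer RNA, 14 were tested, and none passed edgeR. DESeq2 called 2 higher and 2 lower with Fc-JAG1 than in the washout, none with compE, and 2 higher and 1 lower with Fc-JAG1 than with compE. Over all genes these calls took 15.7% and 4.74% in the first of these comparisons and 9.18% and 2.21% in the last. The smallest unadjusted edgeR p of Fc-JAG1 against the washout was that of Prorsd1, which resembles the editing domain of bacterial prolyl-tRNA synthetases: it had 3994, 743 and 2198 counts in the washout, 1509 and 1377 with compE, and 6 and 0 with Fc-JAG1. Both Fc-JAG1 libraries were under 10 counts and all 5 others at 743 or more, with an edgeR log2 fold change of -10.29 ± 4.66 (SE, adjusted p = 0.83) against the washout. Of all genes, 6.85% were lower in this comparison with no overlap in CPM. Qrsl1, a subunit of the mitochondrial amidotransferase that makes the glutamine-charged transfer RNA there, had 11, 1536 and 8 counts in the washout, 2104 and 1890 with compE, and 3794 and 5615 with Fc-JAG1. Both Fc-JAG1 libraries of Qrsl1 were above all washout libraries, as 10.5% of all genes were in CPM. The edgeR log2 fold change of Qrsl1 was 5.91 ± 3.48 (SE, adjusted p = 0.84). In CPM its compE libraries (83.2 and 48.8) were also above all washout libraries (at most 42.6). Xpot, the exporter of transfer RNA from the nucleus, had 1560 to 8293 counts over the 7 libraries. Eef1a1, the elongation factor that carries charged transfer RNA to the ribosome, had 18141 to 37718.

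Several cytosolic synthetase genes are known targets of ATF4, the factor that cells make when amino acids run short, which acts through composite C/EBP-ATF elements. The core TGATGNAA of such elements was searched on both strands of RefSeq promoter windows (GRCm38.p6, 250 bases before to 50 after the start). A window was given for 28 of the 37 members, and 5 of these (17.9%) held the letters, against 4.51% of 27025 genes. All 5 are cytosolic. A match is a description of the letters and no sign of binding. For each of the 5 genes the 30 bases around 1 match are shown with the matching letters in capitals, 5′ to 3′ on the strand of the gene, where TTGCATCA and TTTCATCA are the core on the opposite strand.
Aars, chr8:111033840-111033869, plus strand, from base 10 after the start: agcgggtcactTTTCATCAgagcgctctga
Gars, chr6:55037960-55037989, plus strand, 30 bases before the start: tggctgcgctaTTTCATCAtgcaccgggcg
Iars, chr13:49682126-49682155, plus strand, from base 8 after the start: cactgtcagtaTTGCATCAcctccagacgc
Tars, chr15:11399655-11399684, minus strand, 15 bases before the start: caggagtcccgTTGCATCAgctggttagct
Yars, chr4:129189895-129189924, plus strand, from base 4 after the start: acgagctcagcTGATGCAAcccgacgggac

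These 5 genes had no common direction. In Fc-JAG1 1 against washout 2 their log2 ratios were 0.23 for Aars, -0.21 for Gars, 0.84 for Iars, -0.57 for Tars and 0.14 for Yars. In the edgeR fit of Fc-JAG1 against the washout over all libraries, Gars, Iars and Tars had the other sign. The log2 fold changes there were 0.04 for Aars, 2.78 for Gars, -1.18 for Iars, 3.04 for Tars and 0.79 for Yars. Their SE ran from 1.47 to 3.20. Of 22 genes of the amino acid response found in the table, 15 were tested and none passed edgeR in any comparison. Their median edgeR log2 fold change was -0.00 with Fc-JAG1 and 0.12 with compE against the washout, beside 0.44 and -0.10 for all genes. Atf4 itself was present throughout, with 7931, 14026 and 9481 counts in the washout, 22789 and 10915 with compE, and 19187 and 12574 with Fc-JAG1. In CPM both Fc-JAG1 libraries of Atf4 (527 and 533) were above the washout (338 to 461), as 10.5% of all genes were, and the compE libraries (282 and 901) overlapped both groups. Slc3a2, the shared heavy chain of amino acid transporters, had 11250 to 20279 counts. The smallest unadjusted edgeR p-values against the washout were those of Eif2ak3, a kinase that slows translation under stress, and Phgdh, the first enzyme of serine synthesis. Phgdh had 2, 3899 and 551 counts in the washout, 249 and 4524 with compE, and 5779 and 7146 with Fc-JAG1, and Eif2ak3 had 1, 641 and 3 counts in the washout, 2 and 2959 with compE, and 1149 and 521 with Fc-JAG1. In CPM both genes were higher with Fc-JAG1 than in the washout with no overlap, as 10.5% of all genes were. In raw counts of Eif2ak3, however, washout 2 lay above Fc-JAG1 3. DESeq2 called 3 genes of the list higher and 1 lower with Fc-JAG1 than in the washout, 1 lower with compE, and 1 higher with Fc-JAG1 than with compE. The matching shares of all genes were 15.7% and 4.74%, 3.67%, and 9.18%.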

How the data were processed

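Nascent RNA was captured after EU labelling, pre-amplified and sequenced from 7 libraries (3 washout, 2 compE, 2 Fc-JAG1). Per the labels and the methods, the authors' steps were cutadapt 4.2 for trimming, STAR 2.7.8 for alignment to GRCm38, and featureCounts (Subread 2.0.1) for the reads that mapped once. The deposited raw counts are whole numbers per gene with no normalization. The deposited filtered counts were made by the authors from them, and hold exactly the genes left by the filter given in the report. Their normalised table was not used. A further Fc-JAG1 sample, which the authors left out, was not analysed here.

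Columns were assigned to conditions by their names. Gene names, lengths and overlaps were taken from GENCODE M21 (GRCm38), which named 55141 of the identifiers and left 346 without a name, and promoter windows from RefSeq. Comparisons were fitted over all 10311 tested genes by the quasi-likelihood test of edgeR 4.0.16 under R 4.3.3 (TMM, terms for biological sample and condition), with Benjamini-Hochberg adjustment over all genes and a threshold of 0.05. DESeq2 1.42.0 (Wald test), the tool of the study, was an alternative, with the same terms. In both, a call also needed 10 counts in 2 libraries of either condition. The SE given for edgeR is the absolute log2 fold change divided by the square root of the F statistic of its test. CPM use TMM-scaled totals. The scripts were tested on simulated data. The 37 members, the lists and the tests were chosen with earlier results of these data known. Named with fold changes were the members with the 2 smallest edgeR p-values on each side, those called by DESeq2 and those without overlap, and of each list at most 4 genes. The edgeR fold changes of the 5 genes with a promoter match were added, and stand outside the summaries of named fold changes below. The view of washout 2, compE 2 and Fc-JAG1 1 alone was added after seeing the data. In it Fc-JAG1 1 is of another biological sample than washout 2 and compE 2, which share their number.

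The study treats libraries of one number as paired. Their deviations from the condition means correlated at -0.0721 to 0.0740 (5 pairs), which did not settle it. Reads were not tagged by molecule, and a count of 0 does not show that a gene was silent. The first 2 comparisons share the washout libraries. Where nothing shows that libraries came from separate embryos, p-values measure the spread between these libraries. Common dispersion was 2.42. Figures were drawn with matplotlib 3.10.9. Some items are not reported here.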

Additional observations from a re-analysis of the deposited data

How the results depend on the processing

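In edgeR 0 members passed in each comparison under every alternative run: no replicate block, DESeq2 size factors, library totals, 2 other filters and each library left out. DESeq2 called 7 members for Fc-JAG1 against washout, 3 for compE against washout and 2 for Fc-JAG1 against compE, and 0 in each with no replicate block. Over all genes DESeq2 called 2108, 962 and 1175, and 388, 325 and 190 with no replicate block, where edgeR called 1, 0 and 0. For Fc-JAG1 against washout the median log2 fold change was 1.07 for the members and 0.44 for all genes with TMM, 0.76 and 0.07 with DESeq2 size factors, and 1.22 and 0.71 with library totals. Without 1 library DESeq2 called 1 to 11 (6 without washout 2, compE 1 or compE 2), 0 to 4 and 0 to 10. The members' median log2 fold change less that of all genes was 0.63, 0.65 and -0.24, and with no replicate block (libraries not paired) 0.49, 0.69 and -0.15. In washout 2, compE 2 and Fc-JAG1 1 only it was 0.14, 0.34 and -0.10, and without 1 library -0.55 to 1.6, 0.05 to 1.28 and -0.81 to 1.22, the last value in DESeq2 without compE 1.

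Leaving out 1 library turned the direction of 12 of the fold changes named. For Fc-JAG1 against washout the log2 fold changes ran over -0.43 to 11.84 (edgeR) and -1.10 to 11.98 (DESeq2) for Qars, -0.04 to 12.03 (edgeR) and -0.78 to 12.17 (DESeq2) for Tars, and 0.62 to 4.2 (edgeR) and -0.07 to 4.17 (DESeq2) for Lars2. Without Fc-JAG1 3 DESeq2 gave -1.03 for Qars and -0.71 for Tars. Tars stood at -0.11 in DESeq2 with no replicate block. For compE against washout they ran over -17.44 to 0.63 (edgeR) and -16.93 to 0.60 (DESeq2) for Kars, -12.73 to 0.57 (edgeR) and -12.94 to 0.54 (DESeq2) for Rars, -1.02 to 2.41 (edgeR) and -1.07 to 2.25 (DESeq2) for Iars, and -0.01 to 4.08 (edgeR) and -0.69 to 6.47 (DESeq2) for Nars2. For Fc-JAG1 against compE they ran over -12.04 to 0.93 (edgeR) and -15.51 to 1.55 (DESeq2) for Yars2, -2.76 to 3.19 (edgeR) and -3.72 to 3.90 (DESeq2) for Farsa, -8.24 to 1.01 (edgeR) and -10.79 to 3.12 (DESeq2) for Nars, -8.50 to 0.73 (edgeR) and -10.07 to 1.83 (DESeq2) for Sars, and -2.56 to 7.54 (edgeR) and -3.38 to 6.09 (DESeq2) for Sars2. Aars2 stood at -0.14 there in edgeR with no replicate block. The cause was not tested. Standard errors of the named edgeR log2 fold changes were 1.95 to 6.32, which limits what could be detected.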
